A study of Mus musculus with 4 samples.

Results

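The 10 genes described here belong to the arm of the circadian clock that is switched on through E-box and D-box elements. They are the period genes Per1, Per2 and Per3, the cryptochrome genes Cry1 and Cry2, the PAR bZIP genes Dbp, Tef and Hlf, and the repressor genes Ciart and Bhlhe40. They were chosen by name, with earlier results of these data known, out of 30702 genes measured on Affymetrix expression arrays. Each gene is represented by the probe set with the highest mean over the 4 arrays; each of the 10 had 1 probe set of its own and none that it shared with another gene.

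RNA came from whole lung of adult mice of matched age, with 2 arrays in each of 2 groups. The wild-type group (WT) is labelled with the strain C57/BL6, and the sickle cell disease group (SCD) with the strain SCD Tg. No treatment is listed for either group. The transgene, its promoter, the background strain of the SCD animals, their sex, their exact age and the time of day at which lungs were taken are given in none of the sources used here. The part of each in the differences below was not tested. The series speaks of 2 lungs in each genetic group. The p-values therefore measure the spread between these samples, with the variance of each gene moderated toward a trend over all genes. The values are read as log2 expression, so that a difference of 1 is a doubling.

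In the clock, the activators CLOCK (or its relative NPAS2) and BMAL1, the product of Arntl, bind E-boxes and switch on the Per, Cry, Dbp and Nr1d genes. The PER and CRY proteins then gather and repress these same activators, which closes a loop of about a day. DBP, TEF and HLF bind D-boxes in a further layer of genes, and the REV-ERB proteins, encoded by Nr1d1 and Nr1d2, repress Arntl and Npas2. In lung, as in most organs, these genes cycle over the day, and Per1 and Per2 also answer to glucocorticoids.

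The stretches before the transcription start were searched for the elements after which these genes are grouped. They were taken from RefSeq promoter windows on GRCm38.p6, which run from 250 bases before a start to 50 bases after it; 8 of the 10 genes had such windows, 10 in all, and Per2 and Bhlhe40 are named only. Both strands were searched for the E-box CACGTG, its variant CACGTT, the D-boxes TTATGTAA and TTACGTAA, the cAMP response element (CRE) TGACGTCA and the pattern GAANNTTC of heat shock elements, none of which overlapped another in these windows. Below are the 250 bases before the start of the genes with an E-box or a D-box, 5′ to 3′ along the gene, with matches in capitals. Per3 is at chr4:151044666-151044915 (minus strand), Ciart at chr3:95882229-95882478 (minus), Tef at chr15:81802423-81802672 (plus, the first of 2 starts), Per1 at chr11:69098699-69098948 (plus, the first of 2 starts) and Cry1 at chr10:85185055-85185304 (minus).
Per3: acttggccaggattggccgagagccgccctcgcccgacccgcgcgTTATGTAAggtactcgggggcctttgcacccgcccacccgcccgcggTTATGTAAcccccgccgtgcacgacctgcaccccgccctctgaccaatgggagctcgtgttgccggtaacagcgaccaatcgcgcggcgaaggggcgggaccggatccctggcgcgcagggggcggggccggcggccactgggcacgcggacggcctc
Ciart: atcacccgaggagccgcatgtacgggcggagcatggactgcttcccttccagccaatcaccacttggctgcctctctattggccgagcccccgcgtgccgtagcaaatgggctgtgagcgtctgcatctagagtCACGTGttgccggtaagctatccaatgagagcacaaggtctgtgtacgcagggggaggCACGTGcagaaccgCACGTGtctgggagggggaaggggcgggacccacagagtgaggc
Tef: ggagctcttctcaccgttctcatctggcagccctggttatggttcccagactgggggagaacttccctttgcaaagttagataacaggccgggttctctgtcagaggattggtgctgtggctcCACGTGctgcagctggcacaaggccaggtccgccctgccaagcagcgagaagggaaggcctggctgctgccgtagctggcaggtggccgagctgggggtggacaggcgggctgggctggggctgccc
Per1: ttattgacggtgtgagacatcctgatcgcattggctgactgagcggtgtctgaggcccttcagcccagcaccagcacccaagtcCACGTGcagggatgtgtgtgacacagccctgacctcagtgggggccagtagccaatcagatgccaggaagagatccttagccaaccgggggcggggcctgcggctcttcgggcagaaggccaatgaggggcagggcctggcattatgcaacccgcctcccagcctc
Cry1: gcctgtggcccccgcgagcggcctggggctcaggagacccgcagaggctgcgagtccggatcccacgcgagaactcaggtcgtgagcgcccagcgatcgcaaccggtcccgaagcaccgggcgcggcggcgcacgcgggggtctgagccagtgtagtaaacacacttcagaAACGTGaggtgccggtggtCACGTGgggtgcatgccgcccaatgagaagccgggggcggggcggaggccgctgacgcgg

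Per3 held 2 copies of the D-box TTATGTAA, which start 205 and 158 bases before the transcription start. Of all 32851 windows, 0.938% held this D-box and 8 held 2 or more D-boxes of either form. Ciart held 3 E-boxes, at 116, 58 and 44 bases before the start, as did 29 windows in all with 3 or more; 7.15% of all windows held at least 1. Tef had an E-box before each of its starts, at 127 and 138 bases, Per1 had an E-box 166 bases before its first start, and Cry1 had an E-box at 60 bases beside the variant at 79 bases. Cry2 had the variant alone (166 bases; 4.68% of windows), and Hlf had a CRE 9 bases before its start (1.79% of windows). Dbp and the second start of Per1 had no match in these windows, and neither TTACGTAA nor GAANNTTC was found in any of the 10. These matches describe letters and not binding.

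**Figure D1:**
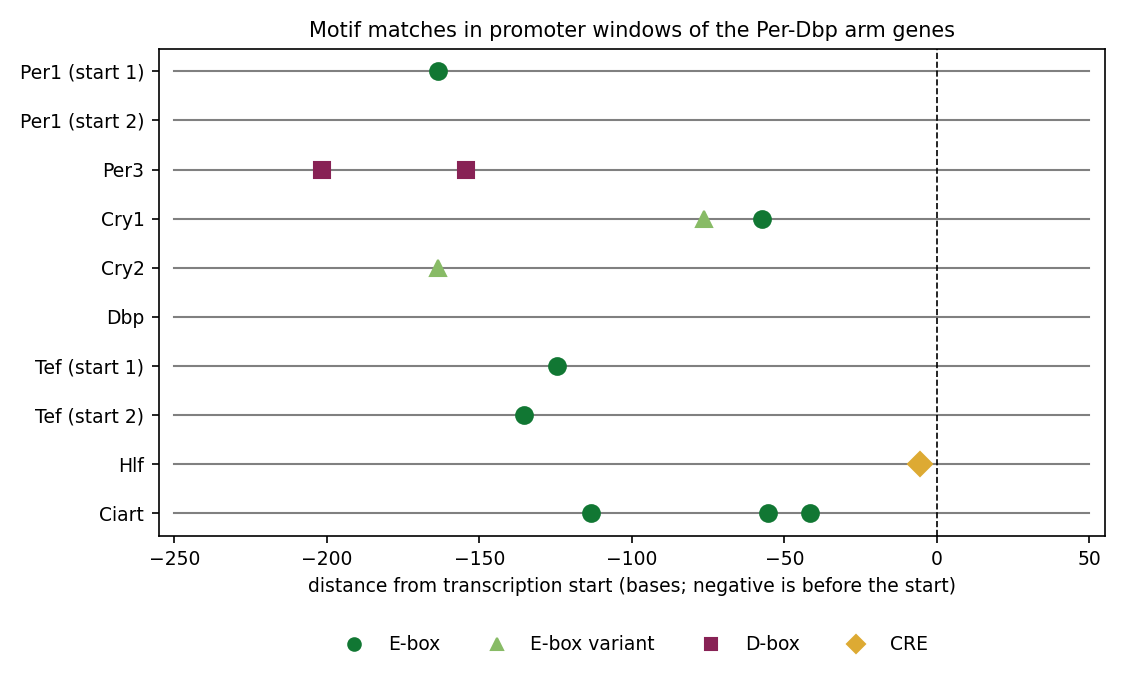
Motif matches along the 10 promoter windows of the 8 genes that had one; the x axis is the distance from the transcription start in bases, and each symbol is a match. Ciart has 3 E-boxes and Per3 has 2 D-boxes, whereas the windows of Dbp and of the second start of Per1 hold no match.

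SCD was compared with WT to find which clock genes differ between the lungs of the 2 groups. Of the 10 genes, 6 rose in SCD lung, 0 fell and 4 did not pass an adjusted p of 0.05 (limma, Benjamini-Hochberg over all genes). Bhlhe40 rose most, by 1.72 on the log2 scale, followed by Dbp, Per3, Per2, Hlf and Tef, while Cry2, Ciart, Cry1 and Per1 did not pass. Over all 30702 genes, 2.47% were called higher and 0.635% lower. The median difference was 0.73 over the 10 genes and 0.0020 over all genes. At an unadjusted p under 0.05, 7 of the 10 were higher and 0 lower, against 10.6% of all genes higher and 6.07% lower.

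**Figure D2:**
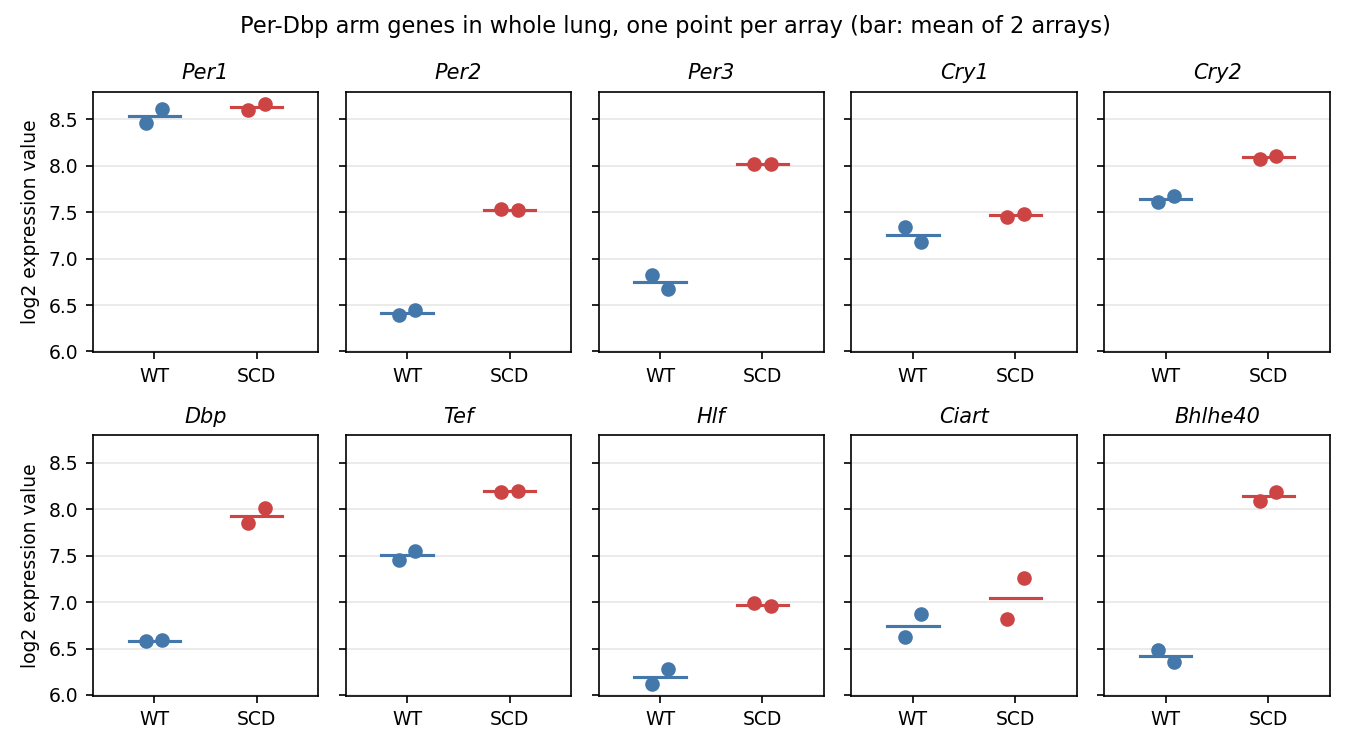
Log2 expression value of each of the 10 genes on each array; points are single arrays, bars the mean of 2 arrays, and levels are not comparable between genes. The SCD points lie above both WT points in 8 genes, and the groups overlap for Per1 and Ciart.

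The period genes encode the core of the repressor complex. Per2 read 6.39 and 6.44 in WT lung and 7.53 and 7.52 in SCD lung. It rose by 1.11 ± 0.10 (SE from limma, n = 2 arrays a group; 2.16-fold; adjusted p = 0.0106). Both SCD arrays lay above both WT arrays, and the gap between the groups was many times that between replicates. Per3 read 6.83 and 6.68 in WT and 8.02 and 8.02 in SCD. It rose by 1.27 ± 0.11 (2.41-fold; adjusted p = 0.00893), again with no overlap. Per1 read 8.46 and 8.61 in WT and 8.59 and 8.66 in SCD, so that the groups overlapped. Its difference of 0.09 ± 0.11 did not pass (adjusted p = 0.733), and its 95% interval ran from -0.18 to 0.37. With the shift of the exon control probes taken off the SCD arrays, which moves the median of all genes to -0.19, the Per1 difference was -0.10. The difference was larger in Per2 than in Per1 by 1.01 (95% interval 0.64 to 1.39) and larger in Per3 than in Per1 by 1.17 (0.78 to 1.56). Per3 and Per2 differed by 0.16, with an interval of -0.22 to 0.54 that includes 0. Here and below, the intervals between paralogs take the genes as independent. They were added after the values were known and are not adjusted over pairs.

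The cryptochrome genes encode the partners of PER that hold the activators in check. Cry2 read 7.61 and 7.67 in WT and 8.07 and 8.11 in SCD. Its groups did not overlap, but its difference of 0.45 ± 0.10 did not pass (adjusted p = 0.102; 95% interval 0.20 to 0.70 before adjustment). Cry1 read 7.33 and 7.17 in WT and 7.45 and 7.48 in SCD, also without overlap, with a difference of 0.21 ± 0.11 (adjusted p = 0.44; interval -0.08 to 0.49). The Cry2 difference exceeded that of Cry1 by 0.24, with an interval of -0.14 to 0.62 that includes 0.

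The PAR bZIP genes encode the transcription factors that act on D-boxes. Dbp, whose message has one of the widest daily swings of any clock gene, read 6.58 and 6.59 in WT and 7.85 and 8.01 in SCD. It rose by 1.34 ± 0.11 (2.54-fold; adjusted p = 0.00823). Hlf read 6.12 and 6.28 in WT and 6.99 and 6.95 in SCD, and rose by 0.77 ± 0.11 (1.71-fold; adjusted p = 0.0389). Tef read 7.46 and 7.55 in WT and 8.18 and 8.20 in SCD, and rose by 0.69 ± 0.10 (1.61-fold; adjusted p = 0.0375). In all 3 genes the SCD arrays lay above the WT arrays. The Hlf and Tef calls were lost when either WT or either SCD array was left out (adjusted p of 0.0636 to 0.268 for Hlf and 0.0692 to 0.281 for Tef), without the intensity trend (0.0506 and 0.0559) and with the exon control shift removed (0.0695 and 0.0736). The Dbp difference was larger than that of Tef by 0.65 (95% interval 0.27 to 1.04) and than that of Hlf by 0.57 (0.16 to 0.98), whereas Tef and Hlf differed by -0.08 (-0.47 to 0.30). Without SCD replicate 2 the intervals for Dbp against Tef and against Hlf included 0 (-0.03 to 1.19 and -0.17 to 1.11), and without WT replicate 2 that for Dbp against Hlf reached just below 0.

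Bhlhe40 (also DEC1) encodes an E-box repressor that competes with the activators and also responds to hypoxia and immune signals. It read 6.49 and 6.35 in WT and 8.09 and 8.19 in SCD. It rose by 1.72 ± 0.11 (3.29-fold; adjusted p = 0.00691), a larger difference than that of 99.6% of all genes. Ciart (also CHRONO) encodes a repressor of the CLOCK and BMAL1 pair. It read 6.62 and 6.87 in WT and 6.82 and 7.26 in SCD, so that the lower SCD array lay below the higher WT array. Its difference of 0.29 ± 0.19 did not pass (adjusted p = 0.528), and it had the widest interval of the 10 genes (-0.19 to 0.78).

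**Figure D3:**
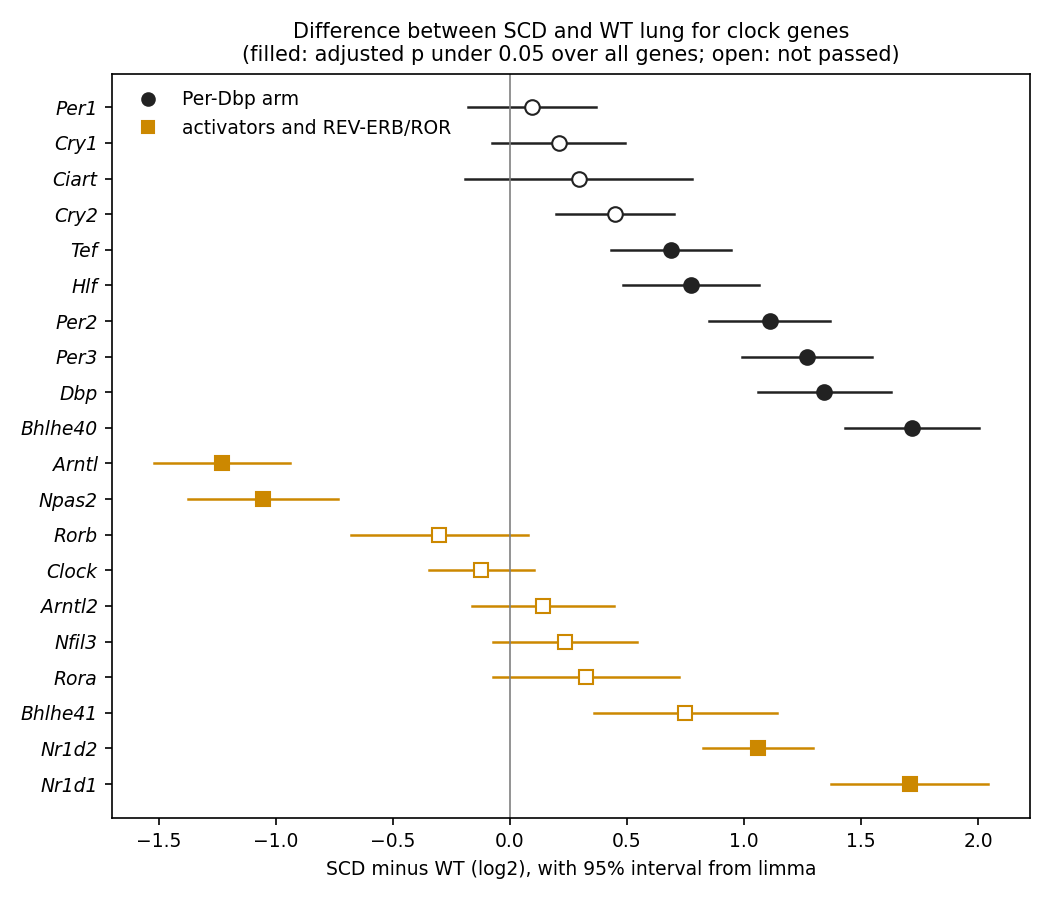
Difference between SCD and WT (log2) with its 95% interval from limma, for the 10 genes (circles) and for 10 other clock genes (squares); filled symbols passed an adjusted p of 0.05 over all genes. All 10 differences of the Per-Dbp arm lie above 0, from 0.09 for Per1 to 1.72 for Bhlhe40, whereas Arntl and Npas2 lie at -1.23 and -1.05.

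Among the 10 genes, both SCD arrays lay above both WT arrays in 8, against 25.3% of all genes. The mean of the 10 genes, each centred on its own mean over the 4 arrays, was -0.41 and -0.38 in WT and 0.36 and 0.44 in SCD. The differences did not depend on 1 array for their sign, but the calls did: when either SCD array was left out, limma called 0 of the 10 genes and 0 of all genes (unadjusted p under 0.05 in 3306 genes without SCD replicate 1 and in 3270 without SCD replicate 2). When either WT array was left out, it called 4 of the 10, all but Tef and Hlf among the 6. Each of these fits leaves 1 array in a group, which is assumed to vary like the pair in the other group. The calls of such a fit rest on 1 residual degree of freedom and on the variance trend over all genes. The WT means of Hlf, Per2 and Bhlhe40 lay below the median of the intron control probes on the WT arrays (6.48), and all 10 SCD means lay above that of the SCD arrays (6.29).

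The rest of the clock moved in both directions. Of the 10 measured genes among 11 activators and members of the REV-ERB/ROR loop, 2 rose, 2 fell and 6 did not pass. Among all genes, 2.47% were called higher and 0.635% lower. Nr1d1, the gene of REV-ERB alpha, read 9.20 and 9.50 in WT and 10.99 and 11.11 in SCD and rose by 1.71 ± 0.13. Nr1d2, the gene of REV-ERB beta, rose by 1.06 ± 0.09. Arntl read 7.43 and 7.48 in WT and 6.30 and 6.14 in SCD and fell by 1.23 ± 0.11 (adjusted p = 0.0107). Npas2, the relative of Clock, fell by 1.05 ± 0.12 (adjusted p = 0.021). Both WT arrays lay above both SCD arrays for Arntl and Npas2, the opposite order to that of the 6 genes of the Per-Dbp arm that rose. Named after their values were seen, Clock itself was at -0.12 ± 0.09, Bhlhe41, the closest relative of Bhlhe40, at 0.75 ± 0.15 (adjusted p = 0.086), and Nfil3, the repressor that competes for D-boxes, at 0.24 ± 0.12; none of these passed.

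**Figure D4:**
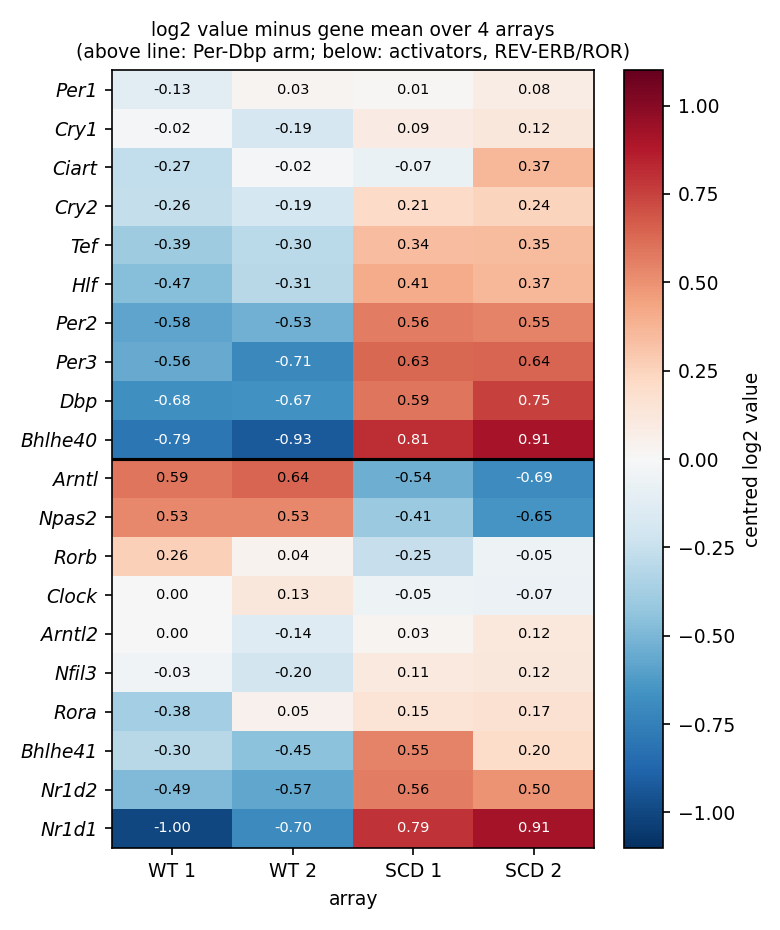
Log2 value minus the gene's mean over the 4 arrays, for each array (columns) and clock gene (rows); red is above the gene's mean and blue below it. Bhlhe40, Dbp, Per3 and Per2 are below their mean on both WT arrays and above it on both SCD arrays, and Arntl and Npas2 show the opposite order.

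Of 9 measured genes for the kinases, ubiquitin ligases and partners that set the life span of PER and CRY, limma called 0, with 0 at an unadjusted p under 0.05, and the differences ran from -0.13 to 0.10. Of 8 rhythmic output genes, Nampt, the rate-limiting enzyme gene of NAD salvage, rose by 0.60 ± 0.10 (adjusted p = 0.0470) and 7 did not pass. Nampt missed the threshold without the intensity trend (0.0774), with the exon control shift removed (0.0946) and when any array was left out (0.0869 to 0.345). Over the 8 genes, the median difference was 0.38. In 8 of 8 the SCD arrays lay above the WT arrays, against 25.3% of all genes. Some gaps were narrow beside the replicates: Wee1 read 7.24 and 6.70 in WT and 7.32 and 7.77 in SCD. Of 6 measured target genes of the PAR bZIP factors, 2 rose and 4 did not pass, against 2.47% of all genes called higher. The means of these 4, Pdxk, Ppara, Cyp7a1 and Nr1i3, lay below the intron control medians in both groups (6.48 in WT and 6.29 in SCD). Alas1, which starts heme synthesis outside the red cell lineage, read 10.01 and 10.08 in WT and 11.25 and 11.25 in SCD and rose by 1.21 ± 0.08. Cyp2a4, a steroid hydroxylase gene, rose by 2.68 ± 0.22; it has a near-identical neighbour, Cyp2a5, so that its own share of this signal is uncertain.

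Lists for signals known to act on Per and Bhlhe40 genes differed in their counts. Of 12 glucocorticoid-responsive genes, 6 rose and 0 fell, with a median difference of 0.60. Over all genes, 2.47% were called higher and 0.635% lower. The cell cycle inhibitor gene Cdkn1a rose by 2.25 ± 0.12 and the metallothionein genes Mt2 and Mt1 by 2.62 ± 0.21 and 1.68 ± 0.15. Zbtb16, Pdk4 and Sgk1 also rose, by 0.90 ± 0.13, 1.02 ± 0.15 and 0.63 ± 0.10. Their adjusted p in limma was 0.034, 0.037 and 0.045. Zbtb16 missed the threshold without the intensity trend. The 6 that missed the threshold included Fkbp5 (0.57 ± 0.13), Dusp1 (0.34 ± 0.14), Errfi1 (0.09 ± 0.11) and Klf15 (-0.17 ± 0.14). Of 9 measured CREB targets and immediate early genes, limma called 0, with 3 higher and 0 lower at an unadjusted p under 0.05. The shares of all genes at that unadjusted p were 10.6% higher and 6.07% lower. Crem was at 0.43 ± 0.12 and Fos at 0.43 ± 0.14, while Nr4a2 was at -0.27 ± 0.10 and Nr4a1 at -0.20 ± 0.11. Of 9 hypoxia-responsive genes, Ndrg1 rose by 0.90 ± 0.11 and 8 did not pass. At an unadjusted p under 0.05 in limma, 5 of the 9 were higher and 1, Adm (-0.56 ± 0.12), was lower, against 10.6% and 6.07% of all genes. Of 8 measured temperature-responsive and heat shock genes, 3 rose, among them the chaperone gene Hsph1 (2.11 ± 0.08). The cold-inducible RNA-binding genes Cirbp and Rbm3, at -0.65 ± 0.11 and -0.49 ± 0.09, did not pass (adjusted p of 0.0537 and 0.0743).

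In bulk lung, a change in the number of cells of a type and a change in RNA per cell cannot be told apart. Markers of several cell types differed between the groups. Beside the counts below stand 2.47% of all genes called higher and 0.635% called lower. The summed linear level of 8 neutrophil markers was 68782 and 90686 in WT and 441710 and 492690 in SCD, and 24580 and 29870 against 137700 and 156600 without the brightest, S100a8. Of the 8, 6 rose, with S100a8 at 2.62, while Mpo (log2 means of 4.21 and 4.33 in WT and SCD) and Ly6g (5.43 and 5.76) lay below the intron control medians in both groups. Of 8 monocyte and macrophage markers, 2 were higher and 1 lower. Ly6c2 alone gave 91.6% to 96.3% of their summed level; without it the sum was 3028 and 3415 in WT and 4285 and 4514 in SCD. Of 6 measured erythroid markers, 2 were higher, with a median difference of 0.57. Alas2 gave 65.5% to 94.2% of their summed level, and without it the sum was 207 and 184 in WT and 284 and 308 in SCD. The erythroid regulator gene Gata1 (4.52 and 4.55), Klf1 and Epb42 lay below the intron control medians in both groups. Slc4a1, which was called higher, and Hemgn lay below them in WT only. The WT sums without Alas2 therefore came only from genes below the intron control median. Of 8 measured lymphocyte markers, 3 were higher. Of 9 endothelial markers, 1 rose and 3 fell, among them Tek (-1.94) and Aplnr (-3.31), and of 7 measured smooth muscle and fibroblast markers 1 rose and 2 fell. Of 9 measured markers of heart muscle, fat and liver, 1 rose and 2 fell, with Nppa at 2.88 and Adipoq at -1.33. The part of these cells in the clock gene differences was not tested. The epithelial markers that define lung were present in both groups. Of 9 measured, limma called 0. At an unadjusted p under 0.05, 2 were higher and 1 lower, against 10.6% and 6.07% of all genes. Sftpc and Scgb1a1 sat at the highest value of the table (19.93) on all 4 arrays, so that they show presence but no direction.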

How the data were processed

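Whole-lung RNA of 2 WT and 2 SCD samples, grouped by sample title, was measured on Affymetrix arrays. The deposited values, 1 for each of 72688 probe sets and each array, were read as log2 values from their range (1.72 to 19.93). Per the submitters' processing notes, the authors used Affymetrix Expression Console, Partek and RMA; for versions, roles and genome build the entry is: not given in the sources used here. The number of arrays limits the precision. Replicate arrays correlated at 0.992 (WT) and 0.995 (SCD) over genes (Pearson).

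Probe sets were named through the platform annotation, with symbols updated by the RefSeq table of GRCm38.p6; 31258 had 1 gene, 1492 several. The highest-mean probe set stood for each of 30702 genes. SCD was compared with WT in limma 3.58.1 (R 4.3.3; lmFit, eBayes with intensity trend, two-sided, group as the only term). Intervals are 95% intervals from the moderated SE. For the 7 pairs of paralogs, a comparison added after the values were known, the 2 SEs were added in quadrature, with the genes taken as independent and no adjustment over pairs. The fit was checked on simulated data with independent noise and with the spreads shuffled across genes. That check therefore does not cover shared array effects or the intensity trend of these data. The members and gene lists were chosen with earlier results of these data known. Named genes are all 10 members, genes of the clock, output and target lists past the threshold, up to 4 genes with the smallest p of other lists, the 5 genes nearest to Dbp, and others chosen after their values were seen. Alternatives were other normalizations, variance models, thresholds, dim filters of 25% and 50%, a replicate block and each array left out.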

Additional observations from a re-analysis of the deposited data

How the results depend on the processing

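Over 17 alternatives, the difference of every gene of the Per-Dbp arm kept its sign, except that of Per1, which was -0.10 with the exon control shift removed. Bhlhe40, Dbp, Per3 and Per2 passed 0.05 in every alternative that used all 4 arrays (highest adjusted p in limma 0.0132, 0.0201, 0.0211 and 0.0221), and Cry2, Cry1, Ciart and Per1 passed in none at that threshold. At a threshold of 0.01, 3 genes of the arm, 248 higher and 38 lower genes over all were called; at 0.10 these last were 1283 and 471. With the exon control shift removed, the median difference of the arm was 0.53 and 525 genes were higher and 573 lower, against 757 and 195. Lower calls numbered 114 without the intensity trend and 321 without the dimmest 50% of genes. With each array left out in turn, 0 to 4 genes of the arm, 0 to 643 higher genes and 0 to 143 lower genes were called, and the median difference of the arm ran from 0.67 to 0.79. The replicate numbers mark no stated pairing, and the deviations of same-numbered arrays had a correlation of -0.0022 over genes; with the number as a replicate block, 4 genes of the arm were called, with Tef and Hlf at adjusted p of 0.0622 and 0.0606, and 780 genes higher and 193 lower. The block also left Nampt and Tmem107 short of the threshold (0.0683 and 0.056). With 2 arrays a group, 95% intervals of the differences of the 10 genes spanned at least 0.5 on the log2 scale.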

Other observations

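The 5 named genes outside the Per-Dbp arm whose 4 array values lay nearest to those of Dbp, each gene centred on its own mean, were Gch1, Spef2, Pisd-ps1, Rsph4a and Xpnpep2. Gch1, which starts tetrahydrobiopterin synthesis, read 8.28 and 8.30 in WT and 9.53 and 9.69 in SCD, a root mean square difference from Dbp of 0.013 over the 4 arrays. Spef2 and Rsph4a, genes of motile cilia, lay at 0.035 and 0.046. Of all genes, 51 lay within 0.1 of Dbp, Per3 (0.087) among them, while Per2 lay at 0.13 and Bhlhe40 at 0.20. This nearness is a description over 4 arrays.

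Of 40 named neighbours, 2 on each side of each gene in the RefSeq order, 1 passed. Over all genes, 2.47% were called higher and 0.635% lower, so that 1 call among 40 lies near the share of all genes. The neighbour that passed was Tmem107, next but one to Per1. It rose by 0.93 ± 0.14 (limma adjusted p = 0.0442), while Per1 itself did not pass. Tmem107 missed the threshold without the intensity trend (0.0591), with array weights (0.0504), with the exon control shift removed (0.0686) and when any array was left out (0.114 to 0.246). The differences of the 40 ran from -0.42 to 0.93, with a median of 0.07.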
